A study of Mus musculus with 16 samples.

Results

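The open chromatin around 9 genes was described in bone marrow-derived macrophages: the liver X receptor (LXR) genes Nr1h3 (LXRα) and Nr1h2 (LXRβ), their dimer partner Rxra (RXRα), the lipid-sensing receptors Pparg (PPARγ) and Ppard (PPARδ), the orphan receptors Nr4a1, Nr4a2 and Nr4a3, and the corepressor gene Ncor1. The data were ATAC-seq, in which Tn5 transposase cuts accessible DNA, and came as 4 peak lists. Overlapping peaks of the lists were merged into 37648 regions, and the regions whose midpoint lay up to 100 kb from the transcription start site (TSS) of a member gene were taken, whatever their values. There were 85 such regions, from 18 near Nr4a1 to 4 near Nr4a3. All cells were primary macrophages grown from C57BL/6J bone marrow, with L-cell conditioned medium as the growth factor source, and were kept without serum for a day before treatment. On day 8 they received DMSO (Veh) or 500 nM of the LXR agonist T0901317 (T0) for 3 h and were collected, or then received 10 ng/mL lipopolysaccharide (LPS) in the same medium for 2 h more (LPS after DMSO, T0-LPS after T0). A group with LPS was therefore also in culture for longer than the group without it, and T0-LPS was in the agonist for longer than T0. The effects of LPS and of time cannot be told apart. Each group had 4 libraries of 50000 cells.

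LXRα and LXRβ bind DNA as dimers with RXRα and are activated by oxysterols. They switch on genes for cholesterol efflux, and an agonist also lowers the expression of many inflammatory genes in macrophages. PPARγ and PPARδ share the same partner and respond to fatty acids and their derivatives. The NR4A receptors have no known hormone ligand, are induced within minutes to hours by many stimuli, LPS among them, and can bind DNA as monomers. NCoR1 is recruited by LXR and PPAR when no agonist is bound and brings histone deacetylase activity to their target genes. LPS acts through TLR4 on NF-kB and AP-1.

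The 4 libraries of a group had been pooled before peaks were called, so there was no replicate for any value, no test of a difference was possible, and Wilson 95% intervals below cover counting error only. The lists held 35551 peaks in Veh and 29839 in T0, against 33181 in LPS and 31085 in T0-LPS, and the median peak score was 372, 305, 319 and 292 in the same order. Since the score grows with pooled depth, a region was described by the percentile of its score among all peaks of the list, where 0 is the weakest peak and 100 the strongest. The weakest peaks of the Veh list were the ones most often missing from the shorter T0 list, and this shifts percentiles of the remaining peaks. A second percentile, the common percentile, was therefore taken among the 26439 regions with a peak in all 4 lists. Peaks had been kept by the authors only where they lay at macrophage enhancers. Where the running numbers of the flanking peaks left a gap in a list, a called peak could have been removed there, and a missing region is then said to have room. All 8 macrophage marker genes had a peak within 1 kb of the TSS in Veh and LPS and 7 in T0 and T0-LPS, where Csf1r had none. None of 4 T cell genes had one in any list, while 1 of 3 B cell genes (Ms4a1), 1 of 4 neutrophil genes (S100a8) and both dendritic cell genes (Flt3 and Zbtb46) had one in every list. A peak of Col1a1 in Veh and of Epcam in LPS were the only others, and what part other cells had in any result was not tested.

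Sequences are shown for 8 regions on which the results turn: the Ppard region that rose most with LPS, 4 Pparg regions that were lost, gained or lower with LPS and hold a half-site or an AP-1 match, the intron of Nr1h3 that ranked lower in T0 and higher in T0-LPS, the region at the start of Nr4a1 that was missing from both T0 lists, and the only region with a spaced pair of receptor half-sites. Each is the central 200 bases of the region, read from GRCm38 on the plus strand, 5′ to 3′. Capitals mark matches, on either strand, to the receptor half-site AGGTCA, to the longer NR4A element AAAGGTCA that contains it, to AP-1 (TGACTCA or TGAGTCA), to NF-kB, or to a pair of half-sites with a spacer of 4 bases and up to 2 mismatches (DR4). Lower case marks the rest.
Nr1h3, intron, 5.9 kb downstream of the TSS, chr2:91196839-91197038: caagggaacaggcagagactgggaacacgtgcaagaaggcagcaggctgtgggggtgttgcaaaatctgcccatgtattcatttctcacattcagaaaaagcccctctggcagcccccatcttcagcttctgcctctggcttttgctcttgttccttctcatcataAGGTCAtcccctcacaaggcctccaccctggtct
Pparg, 37.8 kb upstream, chr6:115323091-115323290: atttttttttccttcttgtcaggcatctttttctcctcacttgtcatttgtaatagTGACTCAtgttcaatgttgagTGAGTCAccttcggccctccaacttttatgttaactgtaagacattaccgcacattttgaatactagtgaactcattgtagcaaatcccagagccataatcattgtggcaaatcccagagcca
Pparg, 17.7 kb upstream, chr6:115343186-115343385: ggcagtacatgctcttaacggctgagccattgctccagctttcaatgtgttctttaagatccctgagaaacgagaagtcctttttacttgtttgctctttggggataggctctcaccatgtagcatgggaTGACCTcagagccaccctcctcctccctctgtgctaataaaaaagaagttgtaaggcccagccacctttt
Pparg, 17.1 kb upstream, chr6:115343704-115343903: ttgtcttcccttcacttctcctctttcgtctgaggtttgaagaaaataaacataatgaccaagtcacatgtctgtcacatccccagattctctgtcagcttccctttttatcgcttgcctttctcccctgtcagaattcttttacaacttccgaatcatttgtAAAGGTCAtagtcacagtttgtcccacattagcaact
Pparg, intron, 14.7 kb downstream, chr6:115375574-115375773: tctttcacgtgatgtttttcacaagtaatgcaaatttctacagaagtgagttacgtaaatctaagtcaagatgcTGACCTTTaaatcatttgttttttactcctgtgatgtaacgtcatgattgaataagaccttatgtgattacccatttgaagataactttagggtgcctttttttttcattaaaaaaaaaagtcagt
Ppard, 39.8 kb upstream, chr17:28192843-28193042: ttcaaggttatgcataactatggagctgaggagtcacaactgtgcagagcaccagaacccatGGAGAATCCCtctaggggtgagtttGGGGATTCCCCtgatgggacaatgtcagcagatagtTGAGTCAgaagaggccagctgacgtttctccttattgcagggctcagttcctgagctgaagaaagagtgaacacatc
Nr4a1, 134 bp upstream, chr15:101254036-101254235: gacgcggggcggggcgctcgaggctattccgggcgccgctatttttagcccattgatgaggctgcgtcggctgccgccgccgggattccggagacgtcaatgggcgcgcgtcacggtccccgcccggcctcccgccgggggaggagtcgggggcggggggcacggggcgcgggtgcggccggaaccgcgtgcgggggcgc
Ncor1, 36.4 kb upstream, chr11:62494847-62495046: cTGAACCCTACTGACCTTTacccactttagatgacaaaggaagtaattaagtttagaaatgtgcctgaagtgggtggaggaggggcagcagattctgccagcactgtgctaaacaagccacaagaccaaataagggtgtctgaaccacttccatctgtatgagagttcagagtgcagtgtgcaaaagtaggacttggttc

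In the Ppard sequence 39.8 kb upstream, NF-kB matches start at positions 63, 88 and 89, the last pair overlapping, and an AP-1 match starts at position 124, counted from 1 at the left end. The Pparg sequence 37.8 kb upstream holds AP-1 matches at positions 57 and 78. The Ncor1 sequence holds the half-site, the NR4A element and the DR4 match within the same stretch at its left end. No match to any of the 8 motifs searched was found in the Nr4a1 sequence, in which 77.5% of bases are G or C and which holds 34 CpG. Over the central 200 bases of all 85 regions, the half-site was found in 9 (10.6%, against 11.9% of the 37620 regions on the main chromosomes), the NR4A element in 3 (3.53% against 0.946%), AP-1 in 5 (5.88% against 13.4%), PU.1 (GAGGAAGT) in 2 (2.35% against 8.55%) and NF-kB in 7 (8.24% against 4.31%). DR4 was found in 1 (1.18% against 1.94%), a half-site pair with a spacer of 1 base (DR1) in 0 (against 2.54%), and the cyclic AMP element TGACGTCA in 0 (against 1.09%). Of the 7 regions gained in LPS or ranked at least 20 points higher there, 2 held NF-kB, 2 held AP-1 and 0 held a half-site. The Ppard region 39.8 kb upstream is counted for both NF-kB and AP-1. Of the 18 lost or ranked at least 20 points lower, 0 held NF-kB or AP-1 and 3 held a half-site. The motif shares among all regions that moved in these ways were not computed. With so few regions these counts are descriptions, and a match is not a bound site.

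Most of the 85 regions were open in every condition. A peak was present in all 4 lists for 57 (67.1%, against 70.2% of all regions). In Veh alone there were 10 (11.8% against 7.73%), 7 were missing from T0 alone (8.24% against 4.98%), 4 were present in LPS alone (4.71% against 2.41%), 3 in Veh and LPS (3.53% against 3.17%), 3 in Veh and T0 (3.53% against 2.58%), and 1 was missing from T0-LPS alone (1.18% against 2.98%). No region was opened by T0 with or without LPS, and none was present in both LPS lists and neither of the others, a pattern found in 2.69% of all regions. The genes differed in this respect. Nr1h3 and Nr1h2 each kept 7 of 8 regions in all 4 lists and Nr4a2 5 of 6, whereas Ncor1 kept 4 of 8 and Rxra 2 of 8. The windows differ in content. The member's TSS was the nearest coding one for 3 of 8 Nr1h3, 1 of 8 Nr1h2 and 3 of 8 Ncor1 regions. It was so for 5 of 6 at Nr4a2 and 8 of 8 at Rxra. Of all regions, 82.2% of those within 1 kb of a coding TSS and 65.2% of those farther away were in all 4 lists. What part this had was not tested.

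**Figure D1:**
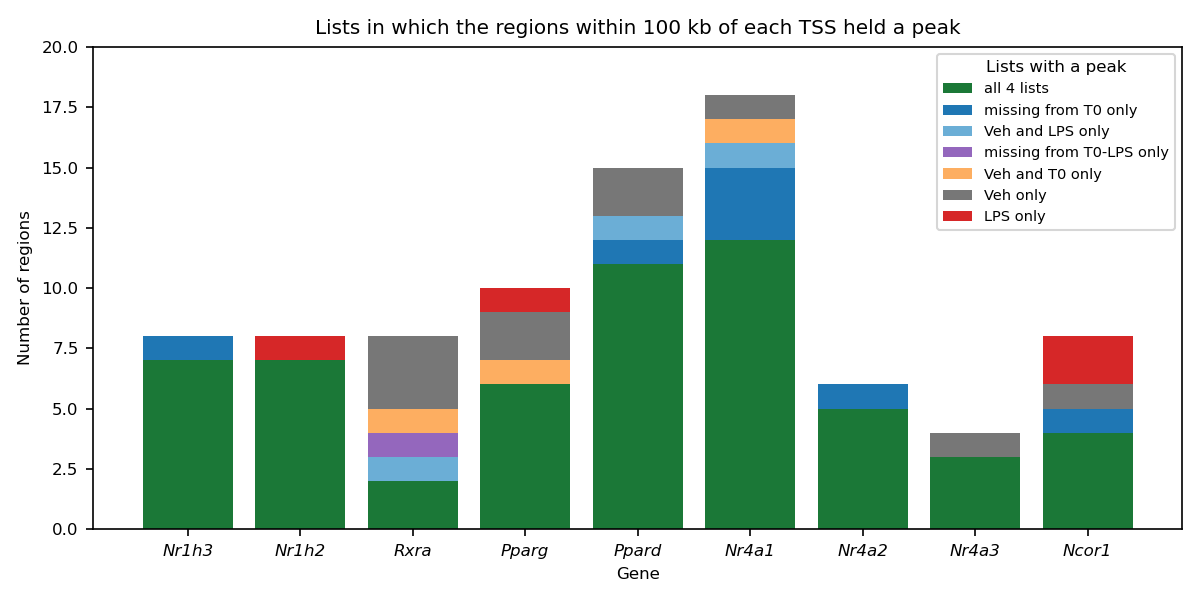
Number of regions within 100 kb of the TSS of each gene (vertical axis), divided by the lists in which they held a peak (colours). Green, peaks in all 4 lists, makes up 7 of 8 regions at Nr1h3 and at Nr1h2 and 2 of 8 at Rxra, where 3 regions had a peak in Veh alone.

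Peaks near these genes were weaker than peaks at large. The median percentile of the member regions was 33.7 in Veh and 43.5 in T0, against 40.5 in LPS and 42.3 in T0-LPS, below the 50.4 to 51.0 for all regions. The range was wide, from 1.39 to 97.8 in Veh. The windows also hold other genes: the nearest protein-coding TSS was that of the member for 44 of 85 regions (51.8%). In position, 39 regions lay in introns, 27 between genes, 12 over untranslated regions and 7 over other exons. The 31 regions within 1 kb of any coding TSS had a median GC content of 66.5% (65.5% for all such regions), and the 54 farther away 54.5% (49.0%). At the edge of the window, the last region inside was 95.7 kb downstream of Ppard, with percentiles of 61.8, 57.8, 57.4 and 63.0 in Veh, T0, LPS and T0-LPS. The first outside was 100494 bp downstream of Nr1h2, which had no peak in T0 and percentiles of 71.3 in Veh, 91.3 in LPS and 90.5 in T0-LPS.

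**Figure D2:**
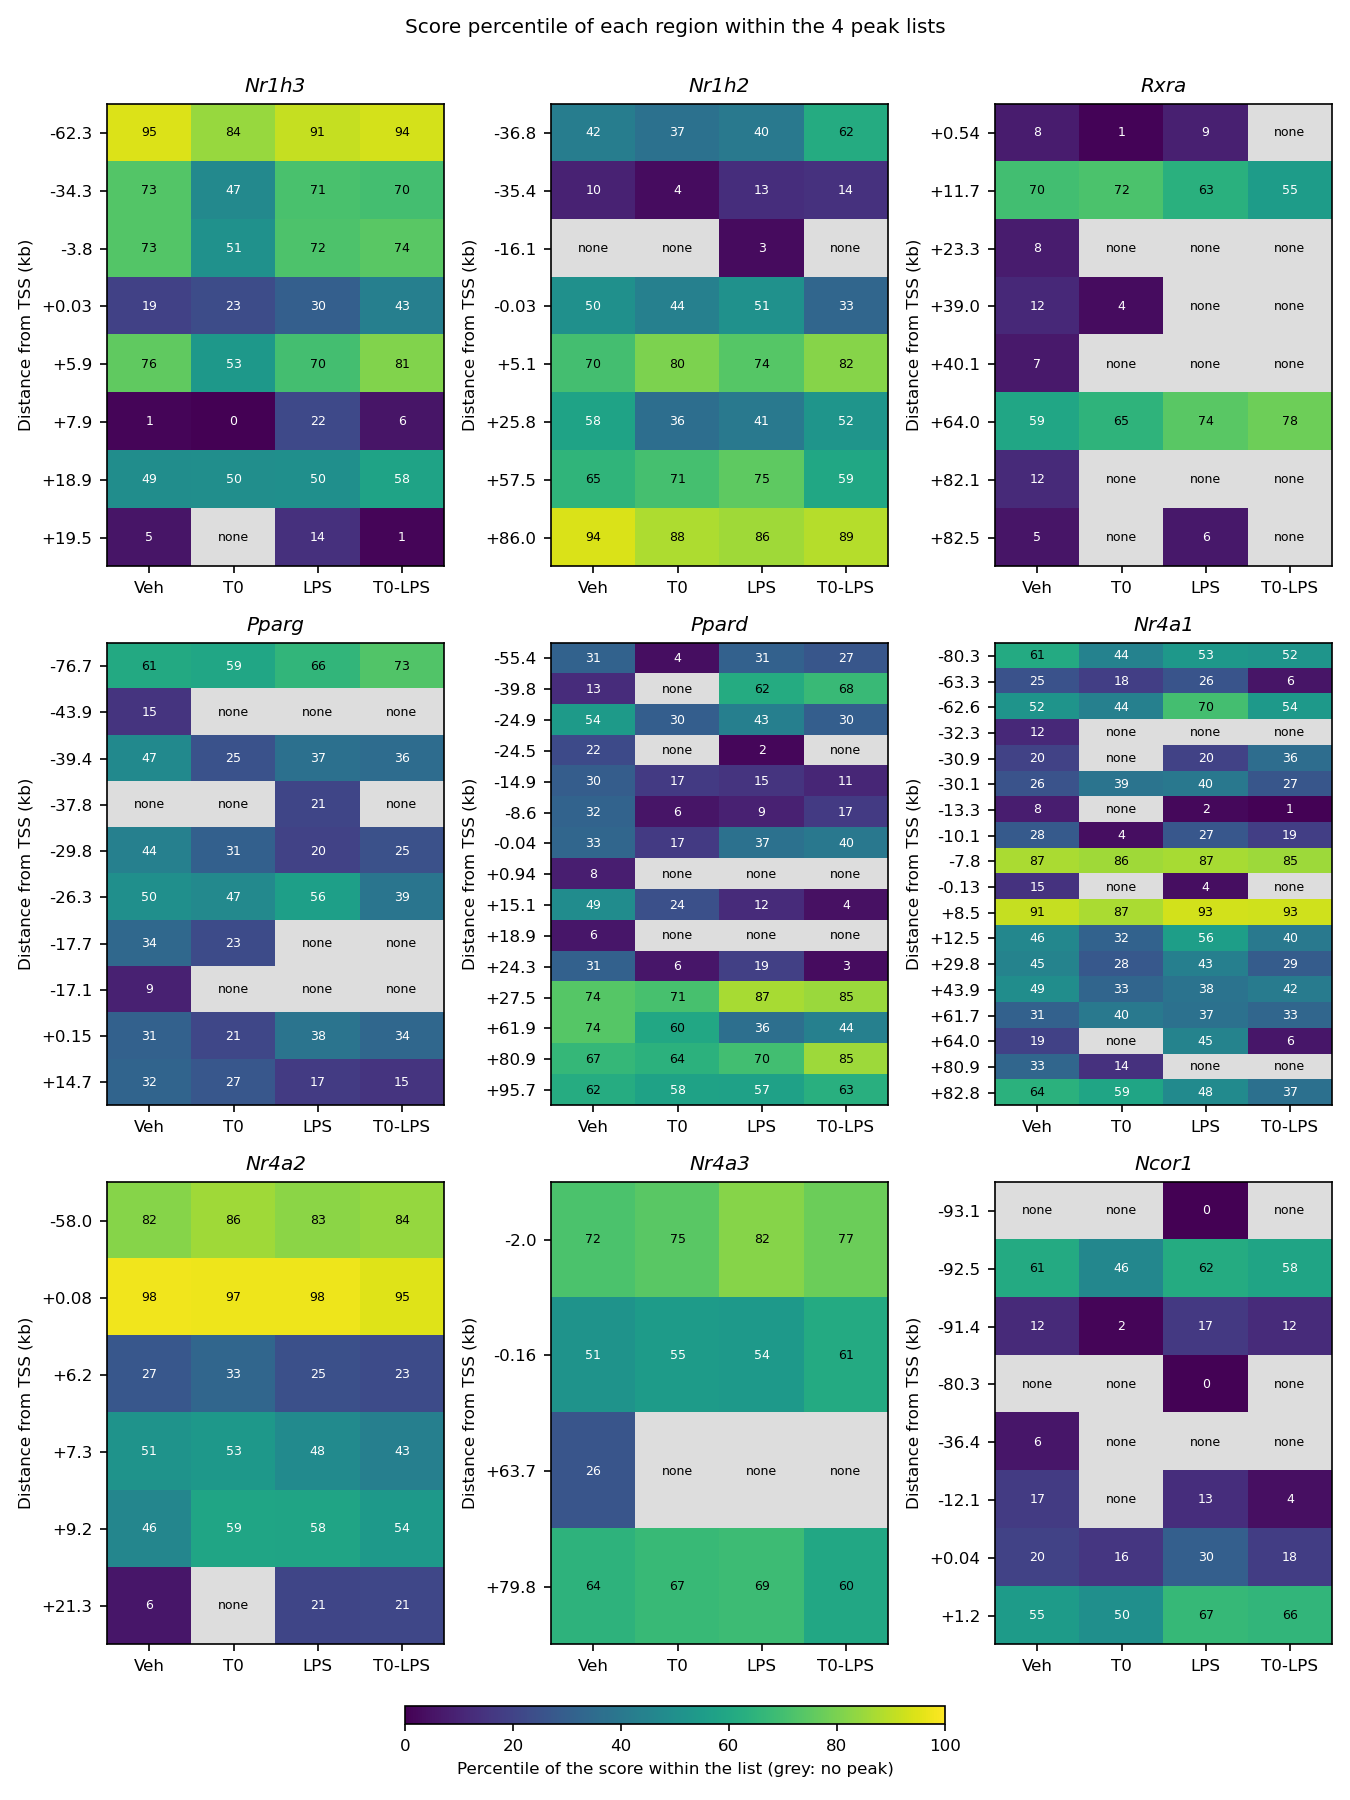
Score percentile of every region (rows, ordered by distance from the TSS in kb, negative upstream) in each peak list (columns), 1 panel per gene. Grey cells hold no peak. Nr4a2 at its start was between 95 and 97.8 in every list, while most rows of Rxra are dark or grey.

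The regions at the gene starts differed widely in strength. At Nr4a2, the region 77 bp downstream of the TSS, 1034 bp wide, scored 1265 in Veh and 1074 in T0, against 1124 in LPS and 901 in T0-LPS, at percentiles of 97.8, 97.4, 97.6 and 95. It led the 9 starts in every list. The Nr4a3 region 156 bp upstream was next, at 51.4, 55.0, 54.2 and 61.0, with Nr1h2 at 50.2, 43.5, 50.7 and 32.9. Ppard (33.1, 17.1, 37.4 and 40.1) and Pparg (31.0, 21.1, 38.5 and 33.5) lay close together. Ncor1 (19.8, 16, 30.3 and 18.0) and Nr1h3 (19.3, 23.4, 30.2 and 43.0) followed in Veh, and Nr1h3 was the start that gained most in rank from Veh to T0-LPS. The TSS of Acp2 lies close to that of Nr1h3, and the Ncor1 start region lies over an exon of Pigl. Neither region can be assigned to the member gene alone. Nr4a1 and Rxra were the weakest. The Nr4a1 start scored 145 in Veh (percentile 14.8) and 88 in LPS (3.76) and had no peak in T0 or T0-LPS, neither list leaving room for one. The Rxra region 541 bp inside the gene scored 112 in Veh (7.53), 68 in T0 (0.995) and 110 in LPS (8.82) and had no peak, and no room, in T0-LPS. With no replicates, the order of Nr1h2 and Nr4a3, of Ppard and Pparg, and of Ncor1 and Nr1h3 is not established, and within each of these pairs the Veh values differed by under 3 points.

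The TSS used here is the 5′ end of the annotated gene, and for some members other transcripts start elsewhere. A second Nr1h3 start lies 59 bp from the region 7.9 kb inside the gene, which scored 72 in Veh (percentile 1.39) and 53 in T0 (0.226), against 162 in LPS (21.9) and 90 in T0-LPS (5.51). It was among the weakest peaks without LPS and was 20.5 points higher in LPS than in Veh. On the common percentile that difference was 9.81 points. The LPS list held 2 peaks in this region, and with their mean score in place of the highest the difference was 9.22 points. A second Nr4a1 start lies 36 bp from the region 12.5 kb downstream, which scored 343 (46.4), 201 (31.5), 367 (56.2) and 236 (40.5). Unlike the first start it had a peak in every list, lower in each T0 list than in its counterpart without T0. An Ncor1 start lies 9 bp from the region 1.2 kb downstream, at 54.9, 49.9, 66.8 and 65.8, well above the gene's 5′ end in every list.

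T0 against Veh asks what the LXR agonist did to open chromatin in resting cells. Regions were lost near 8 of the 9 genes and none was gained. Of 81 member regions with a Veh peak, 20 were T0-closed, that is, had no peak in T0 (24.7%, interval 16.6 to 35.1%, against 18.1% of all regions). None of the 61 with a T0 peak was T0-opened (0%, interval up to 5.92%, against 0.729%). The imbalance depended on the lengths of the lists: with every list shortened to its 29839 highest-scoring peaks, 5 of 61 regions were T0-closed and 5 of 61 T0-opened. The lost regions were 5 near Nr4a1, 4 near Rxra, 4 near Ppard, 2 each near Pparg and Ncor1, and 1 each near Nr1h3, Nr4a2 and Nr4a3. They were weak peaks, with Veh scores of 102 to 208 and percentiles below 30, and the T0 list left no room for a removed peak at 17 of the 20. Of the member regions, 32 had a Veh peak below percentile 30, and 20 of these were lost (62.5%), against 55.6% of all such regions.

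Of the 61 regions in both lists, 11 ranked at least 20 points lower in T0 (18.0%, against 10.4% of all regions) and 0 at least 20 points higher (against 0.0762%). They were 5 near Ppard, 3 near Nr1h3 and 1 each near Nr1h2, Pparg and Nr4a1. In all, 46 of 61 ranked lower (75.4% against 77.1%), with a median change of -6.53 points against -5.58. The fall was shared by the list as a whole. On the common percentile 23 of 57 ranked lower (40.4% against 49.0%), with a median change of 0.927 points against 0.130. On that scale 1 of 57 fell by at least 20 points and 3 rose by as much, against 671 and 511 of 26439 regions. Peaks were narrower in T0 at 50 of 61 regions (82.0% against 87.6%), by a median of 12.3%, and the part that depth had in width and score was not tested.

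LPS against Veh showed losses and gains. Of the 81 Veh regions, 13 were LPS-closed (16%, interval 9.63 to 25.5%, against 13.0% of all regions): 4 near Rxra, 3 near Pparg, 2 near Ppard, 2 near Nr4a1 and 1 each near Nr4a3 and Ncor1. No region of Nr1h3, Nr1h2 or Nr4a2 was lost. Of 72 LPS regions, 4 were LPS-opened (5.56% against 6.14%), 2 near Ncor1 and 1 each near Nr1h2 and Pparg, all with scores up to 158 and none with room in Veh. In lists of equal length the balance turned round, with 5 of 61 LPS-closed and 7 of 63 LPS-opened. At least 20 points lower were 5 of 68 (7.35% against 9.14%), 4 near Ppard and 1 near Pparg, and at least 20 points higher were 3 (4.41% against 3.92%), 1 each near Nr1h3, Ppard and Nr4a1. The median change was 0.437 points, against -2.01 for all regions. On the common percentile 20 of 57 ranked lower (35.1% against 49.5%) and the median change was 3.74 points against 0.0738.

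T0-LPS against LPS asks what the agonist did to the chromatin of LPS-treated cells. Of 72 LPS regions, 8 were T0-closed-in-LPS (11.1%, interval 5.74 to 20.4%, against 9.97% of all regions), with scores of 39 to 158 and none with room. They were 2 near Rxra, 2 near Ncor1 and 1 each near Nr1h2, Pparg, Ppard and Nr4a1. All 4 LPS-opened regions were among them, each present in LPS alone. None of 64 was T0-opened-in-LPS (0% against 3.37%). In lists of equal length there were 3 of 63 and 1 of 61. Of the 64 in both, 2 ranked at least 20 points lower (3.12% against 4.36%), both near Nr4a1, and 1 at least 20 points higher (1.56% against 0.929%), near Nr1h2. The median change was -1.73 points against -1.76, and 0 against 0.0586 on the common percentile.

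T0-LPS against T0 gives the effect of LPS in agonist-treated cells together with that of 2 h more in the agonist medium. Of 61 T0 regions, 4 were missing from T0-LPS (6.56% against 7.70%), 2 near Rxra and 1 each near Pparg and Nr4a1. Of 64 T0-LPS regions, 7 had no peak in T0 (10.9% against 11.7%), the same 7 that were missing from T0 alone. They were 3 near Nr4a1 and 1 each near Nr1h3, Ppard, Nr4a2 and Ncor1. Of 57 in both lists, 7 ranked at least 20 points higher (12.3% against 7.76%), 3 near Nr1h3, 3 near Ppard and 1 near Nr1h2, and 2 at least 20 points lower (3.51% against 5.62%), near Ppard and Nr4a1. The median change was 5.29 points against 0.597, and 4.32 against -0.0813 on the common percentile. The 3 Nr1h3 regions were those that ranked at least 20 points lower in T0 than in Veh, and both comparisons rest on the same T0 list.

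The effect of each treatment alone and with the other can be set side by side for the 57 regions in all lists, since these comparisons share no list. LPS moved 33 of them in the same direction without and with T0 (57.9%, against 62.9% of all regions), 20 up and 13 down. T0 moved 33 in the same direction without and with LPS (57.9% against 58.4%), 27 down and 6 up, but 22 on the common percentile (38.6% against 53.2%). Across the 57 regions, Spearman's rho was 0.22 for LPS (0.45 over all regions) and 0.012 for T0 (0.12). These are descriptions across regions of the same lists, which are not independent replicates.

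**Figure D3:**
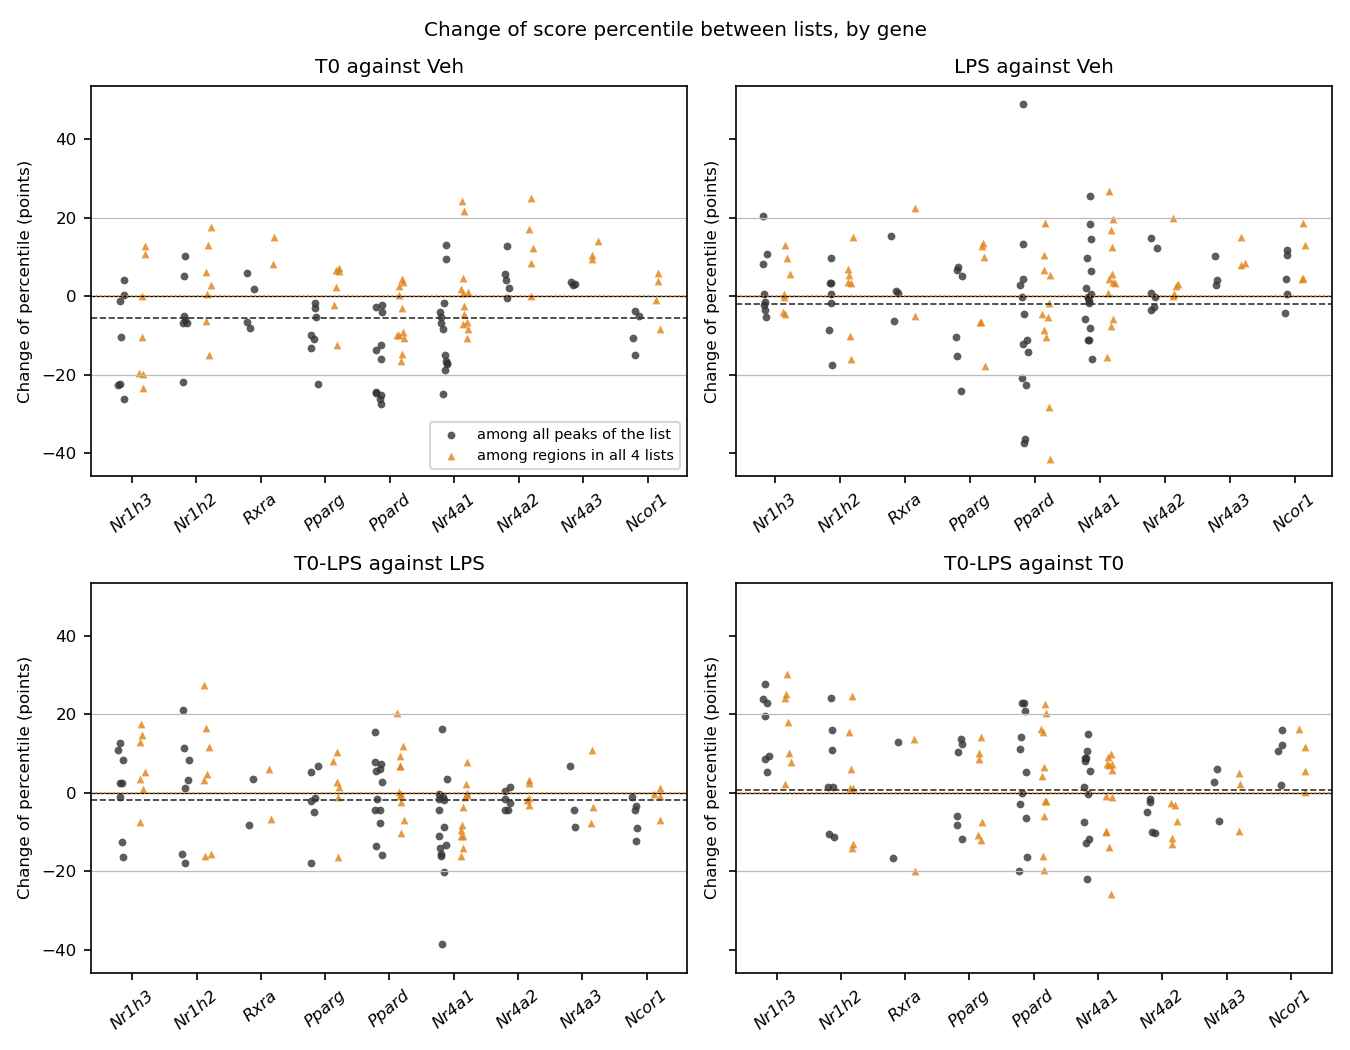
Change in score percentile (points, vertical axis) of each region with a peak in both lists, by gene, for the 4 comparisons. Grey circles use all peaks of a list and orange triangles the regions in all 4 lists. Broken and dotted lines are the medians of all regions on these scales, and pale lines mark 20 points. In T0 against Veh all 11 Ppard circles lie below 0, while 4 of its 11 triangles lie above, and in T0-LPS against T0 all 7 Nr1h3 circles lie above 0.

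Nr1h3 (ENSMUSG00000002108.10, chr2:91184061-91202834, minus strand) encodes LXRα, which like LXRβ is a target of the LXR agonist T0. Its intronic region 5.9 kb downstream of the TSS, whose sequence above holds a half-site at position 167, scored 648 in Veh (percentile 75.6) and 325 in T0 (53.2), against 498 in LPS (70.2) and 581 in T0-LPS (81.0). A neighbour 3.8 kb upstream, in an intron of the divergent gene Acp2, scored 618 (73.4), 308 (50.7), 516 (71.9) and 499 (74.5). Another, 34.3 kb upstream and 193 bp from the start of Ddb2, a DNA damage-binding protein, scored 618 (73.4), 286 (47.2), 508 (71.2) and 452 (70.1). In each of them the T0 value lay below those of all other lists. In the first, T0-LPS was also 10.8 points above LPS, or 14.8 on the common percentile. On the common percentile the falls with T0 were by 19.8, 19.6 and 23.4 points, so the first and second stayed just short of 20. The 5′ end itself did not follow, with scores of 167, 165, 200 and 249.

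The other Nr1h3 regions moved less. The strongest was 62.3 kb upstream, over the start of Arfgap2, with percentiles of 94.7, 84.4, 91.2 and 93.7. A region at the far end of the gene, 136 bp from the start of Madd, was at 49.2, 49.5, 49.7 and 58.0. Next to it, 19.5 kb from the Nr1h3 TSS, lay the gene's only lost region, which scored 102 in Veh (5.49), had no peak and no room in T0, and scored 128 in LPS (13.8) and 65 in T0-LPS (1.21). With LPS added to T0, all 7 regions present in both lists ranked higher, while 53.5% of all regions did. The rises were by 5.29 to 27.9 points, and by 2.22 to 30.2 points on the common percentile.

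Nr1h2 (ENSMUSG00000060601.13, chr7:44549616-44553951, minus strand) encodes LXRβ and lies among many genes. Its own start, 32 bp upstream of the TSS, scored 375 in Veh and 263 in T0, against 324 in LPS and 198 in T0-LPS, and in T0-LPS it ranked 17.8 points lower than in LPS, or 15.6 on the common percentile. Between Veh and T0 the direction depended on the scale, with a change of -6.76 points in the lists and 2.96 on the common percentile. The region 25.8 kb downstream, over an exon of Spib, an ETS family gene of lymphoid and dendritic cells, fell by 21.9 points with T0, from 446 to 223, and stood at 259 in LPS and 305 in T0-LPS. In contrast, the start of Pold1, a DNA polymerase subunit, ranked higher in T0, going from 576 (70.1) to 591 (80.4). The only region present in some lists and missing in others, 16.1 kb upstream, was a weak LPS peak (score 83, percentile 3.06) with an NF-kB match.

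Rxra (ENSMUSG00000015846.14, chr2:27676440-27762957, plus strand) encodes RXRα, the partner that LXR and PPAR share. All 8 of its regions lay in the gene's introns, with no other coding TSS within the window. They fell into a strong and a weak set. The regions 11.7 kb and 64.0 kb downstream had peaks in all lists. The first, with an AP-1 match, scored 572 in Veh (69.8) and 484 in T0 (71.6), against 430 in LPS (63.4) and 326 in T0-LPS (55.1). The second scored 455 (59.0), 415 (64.9), 544 (74.3) and 540 (77.9). They moved in opposite directions with LPS, with and without T0. The other 6 were at or below percentile 12.0 in Veh. Those 23.3, 40.1 and 82.1 kb downstream had Veh peaks of 112, 108 and 133 and none elsewhere. The region 39.0 kb downstream scored 130 in Veh and 86 in T0 and was missing with LPS, and the one 82.5 kb downstream scored 102 in Veh and 99 in LPS and was missing with T0. No list left room at any of these.

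Pparg (ENSMUSG00000000440.12, chr6:115360951-115490399, plus strand) encodes PPARγ, a regulator of lipid uptake and storage genes in macrophages and fat cells. No other coding TSS lay in its window, and 8 of its 10 regions were upstream of the gene. The region 17.7 kb upstream scored 252 in Veh (33.7) and 164 in T0 (22.9) and had no peak and no room in LPS or T0-LPS. It was the highest-ranked member region lost with LPS. Its neighbour 17.1 kb upstream had a Veh peak of 119 (9.01) alone, as did a region 43.9 kb upstream, with a score of 146 (15.0). The first pair each hold a half-site in the sequences above, at 17.1 kb as part of an NR4A element. The third Pparg region with such letters outside the gene's start, in the intron 14.7 kb downstream, scored 243 in Veh (32.3) and 180 in T0 (27), against 142 in LPS (17.2) and 126 in T0-LPS (15.2), lower in each LPS list. The region at the gene's start also holds a half-site and went the other way. Its percentile was 31.0 in Veh and 38.5 in LPS, and 21.1 in T0 and 33.5 in T0-LPS.

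Further upstream of Pparg, the region 29.8 kb from the TSS scored 321 (43.7), 197 (30.6), 150 (19.6) and 163 (24.8), the largest fall with LPS outside Ppard, by 24.1 points, or 17.8 on the common percentile. The one 39.4 kb upstream scored 350 (47.4), 172 (25.0), 237 (36.9) and 209 (35.5) and was lowest in T0. The one 26.3 kb upstream scored 371, 285, 369 and 225 and was lowest in T0-LPS, 17.8 points below LPS. Between them, 37.8 kb upstream, a peak of 158 (percentile 21.0) was present in LPS alone. It carries both AP-1 matches shown above and had no room in any of the other lists. The gene start scored 234, 156, 246 and 200. The strongest Pparg region, 76.7 kb upstream and also with an AP-1 match, was at 60.7, 59.1, 65.9 and 72.8.

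Ppard (ENSMUSG00000002250.16, chr17:28232700-28301474, plus strand) encodes PPARδ, which is widely expressed and linked to fatty acid oxidation. The region that changed most of all members lay 39.8 kb upstream, in an intron of the zinc finger gene Zfp523, with NF-kB and AP-1 matches in its sequence above. It scored 135 in Veh (12.6), 413 in LPS (61.7) and 430 in T0-LPS (67.8), and had no peak in T0, where the list left room for 1 removed peak. With LPS it rose by 49.1 points, and T0-LPS was 6.14 points above LPS. Its nearest coding TSS was that of Def6, 14836 bp away.

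Inside Ppard the changes with LPS ran the other way. The intronic region 61.9 kb downstream scored 622 in Veh (73.7) and 376 in T0 (60.0), against 235 in LPS (36.4) and 254 in T0-LPS (43.7). The one 15.1 kb downstream scored 363 (48.8), 171 (24.5), 123 (12.3) and 87 (4.49). These were the largest falls with LPS of any member region, by 37.3 and 36.5 points, with changes of -41.4 and -28.3 points on the common percentile. In the first the LPS lists were the lowest, and in the second each treatment and then both gave lower values. Another intronic region, 27.5 kb downstream, scored 620 (73.5), 475 (70.8), 737 (86.8) and 645 (85.1) and was higher in both LPS lists, so the intronic regions of the gene did not move together.

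All 11 Ppard regions with a peak in both lists ranked lower in T0 than in Veh. The largest falls were 55.4 kb upstream, at the start of Zfp523, from 236 (31.3) to 88 (3.71), and 8.6 kb upstream, in an exon of Def6, from 241 (31.9) to 97 (5.81). On the common percentile they were changes of -10.7 and -9.96 points, and 7 of 11 Ppard regions ranked lower. The first was at 31.0 in LPS and 26.7 in T0-LPS. The second was low in those lists as well, at 9.29 and 17.1. The region 24.3 kb downstream scored 235 (31.2), 98 (5.95), 149 (19.1) and 79 (3.13), lower in each T0 list than in its counterpart. At the start of Def6, 24.9 kb upstream, the scores were 410, 194, 274 and 183. Next to it, a region 24.5 kb upstream scored 183 in Veh (22.4) and 72 in LPS (1.63) and was missing from both T0 lists with no room. Regions 945 bp and 18.9 kb downstream had Veh peaks of 116 and 105 alone. At the start of Fance, 80.9 kb downstream, T0-LPS was highest, with scores of 536, 412, 492 and 647. It was 15.6 points above LPS, and 20.4 on the common percentile.

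**Figure D4:**
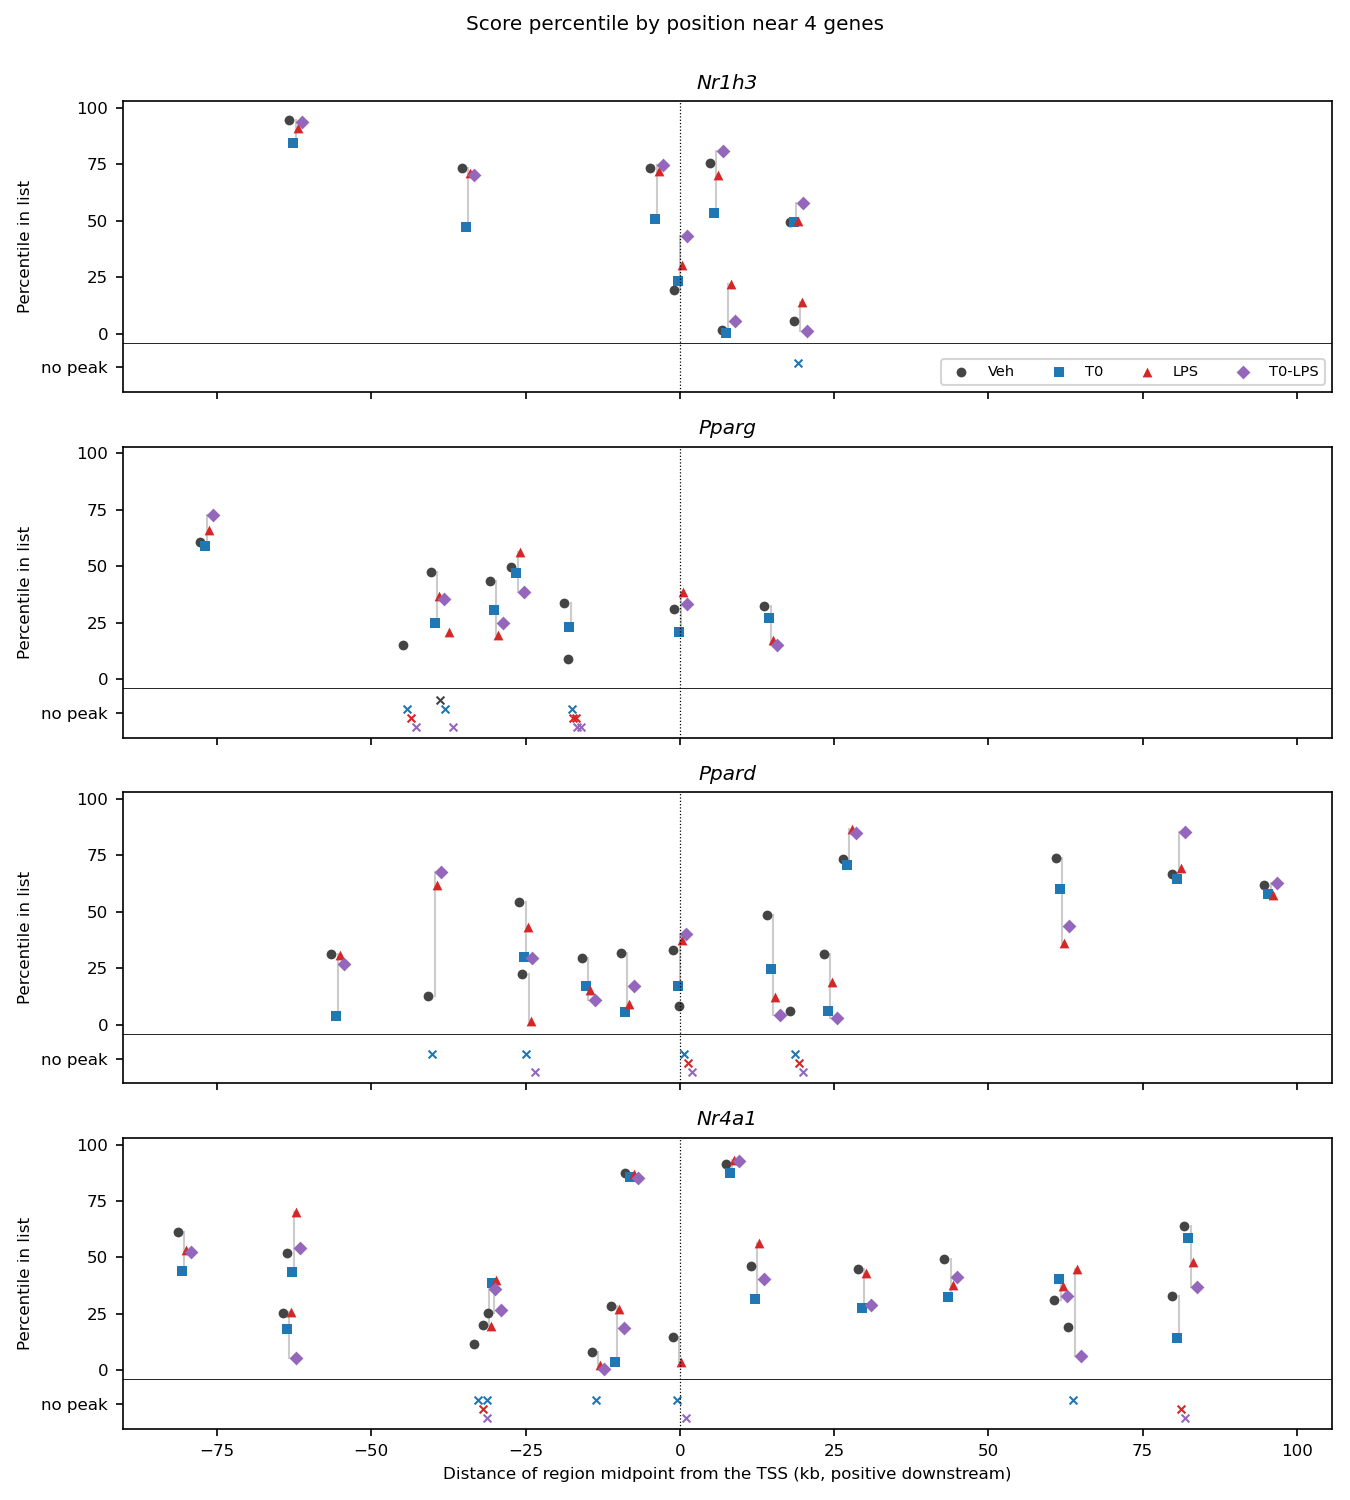
Score percentile (vertical axis) of the regions near Nr1h3, Pparg, Ppard and Nr4a1 against distance from the TSS in kb (horizontal axis, positive downstream, points of 1 region set slightly apart), with 1 symbol per list. Crosses in the lower strip mark lists without a peak. The Ppard region 39.8 kb upstream stands at 12.6 in Veh and above 60 in both LPS lists, and at 61.9 kb downstream the order is the reverse.

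Nr4a1 (ENSMUSG00000023034.7, chr15:101254269-101274795, plus strand) encodes Nur77 and had the most regions, 18, of which 12 were in every list. The pair of strong ones barely moved: 7.8 kb upstream at 87.4 in Veh and 85.7 in T0, against 87.0 in LPS and 85.3 in T0-LPS, and 8.5 kb downstream at 91.3, 87.4, 93.3 and 92.9. Around them were weaker regions that had no peak in T0. The region 13.3 kb upstream, with a half-site and an NF-kB match, scored 114 in Veh, 77 in LPS and 58 in T0-LPS, and was missing from T0 with no room. The one 30.9 kb upstream scored 172, 150 and 210 in those lists and was missing from T0 with no room. In T0-LPS it was 16.4 points above LPS. Another, 64.0 kb downstream in an exon of Gm49499, scored 167 in Veh (19.3), 285 in LPS (44.8) and 94 in T0-LPS (6.21). It was missing from T0, where there was room for 1 removed peak. It rose by 25.6 points with LPS and, with T0 before LPS, was 38.6 points lower than with LPS, the largest fall of any member in that comparison.

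Both falls of at least 20 points from LPS to T0-LPS were in the Nr4a1 window, where 13 of 15 regions ranked lower, while 60.7% of all regions did. Neither fall was in a region whose nearest coding TSS is that of Nr4a1, and 6 of the 18 Nr4a1 regions were of that kind. The second, 63.3 kb upstream in an intron of Acvr1b, an activin receptor, scored 201 (25.3), 146 (18.4), 181 (25.9) and 91 (5.68). It fell by 20.2 points, and by 10.9 on the common percentile, where 9 of 12 Nr4a1 regions ranked lower. At its neighbour 62.6 kb upstream the scores were 387 (51.8), 263 (43.5), 498 (70.2) and 320 (54.1), so LPS was 18.4 points above Veh and T0-LPS 16.1 points below LPS. The region 30.1 kb upstream, at the start of Grasp, ranked higher with T0 in resting cells, from 202 (25.5) to 236 (38.6), or by 24.2 points on the common percentile. The region 10.1 kb upstream fell most in list percentile with T0 of the Nr4a1 regions, from 219 (28.5) to 87 (3.61). It scored 187 in LPS and 139 in T0-LPS. On the common percentile its change with T0 was -8.32 points, and the largest fall was 80.3 kb upstream, with a change of -10.6. At the far end of the window, 82.8 kb downstream, the scores were 506 (64.0), 367 (58.8), 305 (47.9) and 216 (36.9), lower in both LPS lists and lowest in T0-LPS. Its change from Veh to T0 was -5.21 points in the lists and 1.76 on the common percentile. The region 80.9 kb downstream scored 248 in Veh and 131 in T0 and was missing from both LPS lists, with room in T0-LPS.

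Nr4a2 and Nr4a3 encode the related receptors Nurr1 and NOR1. Of their regions shared by Veh and T0, 4 of 5 and 3 of 3 ranked higher in T0, while 22.9% of all regions did. This did not hold with LPS, where 4 of 6 and 2 of 3 ranked lower in T0-LPS than in LPS, while 60.7% of all regions did. Nr4a2 (ENSMUSG00000026826.13, chr2:57106830-57124003, minus strand) had its strongest region at its start, as above. The one 58.0 kb upstream was at 81.8 in Veh and 85.9 in T0, against 82.7 in LPS and 84.2 in T0-LPS. The region 9.2 kb downstream, 206 bp from another Nr4a2 transcript start, scored 339 (46.0), 367 (58.8), 384 (58.3) and 318 (53.9), and its rise with T0 was 12.7 points, or 25.0 on the common percentile. The only region to go missing was 21.3 kb downstream, with a half-site and an AP-1 match. It scored 105 in Veh (6.14), 158 in LPS (21.0) and 149 in T0-LPS (21.4), and had no peak and no room in T0. None of the 5 shared Nr4a2 regions ranked lower in T0 on the common percentile.

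Nr4a3 (ENSMUSG00000028341.9, chr4:48045153-48086447, plus strand) had 4 regions. The broad region 2.0 kb upstream, 1015 bp wide, scored 593 (71.5), 516 (74.6), 647 (81.7) and 534 (77.4). It and the region at the start ranked above Veh in each of the other lists. The start of Stx17, a membrane fusion gene 79.8 kb downstream, was at 64.5, 67.3, 68.7 and 60.0. The region 63.7 kb downstream had the highest score of the T0-closed regions, 208 in Veh (26.5), and no peak elsewhere, but T0 and LPS each left room for 1 removed peak.

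Ncor1 (ENSMUSG00000018501.17, chr11:62316426-62458541, minus strand) encodes the corepressor. It had 8 regions, most of them weak. The 5′ end scored 171 in Veh and 136 in T0, against 201 in LPS and 136 in T0-LPS, and the region 1.2 kb inside the gene scored 416, 304, 463 and 413, so both scored highest in LPS. The second was at 59.0 in LPS and 60.3 in T0-LPS on the common percentile. The region 12.1 kb upstream, in an intron of Pigl, scored 158 in Veh (17.4), 126 in LPS (13.1) and 85 in T0-LPS (4.23), with no peak and no room in T0. The region 36.4 kb upstream, in another Pigl intron, had a Veh peak of 105 (6.14) and none elsewhere, with no room. It is the region whose sequence holds the half-site, the NR4A element and the DR4 match. At the start of the ubiquitin gene Ubb, 92.5 kb upstream, the percentiles were 61.2, 46.3, 61.7 and 58.4, and a weaker region 91.4 kb upstream was at 12.1, 1.55, 16.6 and 12.3. LPS-opened regions lay 80.3 kb upstream, in Cenpv, and 93.1 kb upstream, in Ubb, but their scores of 57 and 39 were among the lowest of the LPS list.

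Other genes of the pathway gave a setting for these counts. A list of 26 other nuclear receptor genes had 197 regions near 21 of them. A list of 17 other coregulator genes had 128 regions, and neither list shared a region with the members. A peak in all 4 lists was held by 70.1% and 66.4% of these regions, near the 67.1% of the members. T0-closed were 34 of 182 regions of the receptors (18.7%) and 22 of 115 of the coregulators (19.1%), and T0-opened were 1 of 149 and 2 of 95. LPS-closed were 17 of 182 (9.34%) and 12 of 115 (10.4%), and LPS-opened 13 of 178 (7.30%) and 11 of 114 (9.65%). T0-closed-in-LPS were 16 of 178 (8.99%) and 22 of 114 (19.3%). The intervals of the member shares for T0-closed, LPS-closed and T0-closed-in-LPS regions contain the shares of both lists except that of 9.34% for LPS-closed receptor regions.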

How the data were processed

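The data were ATAC-seq of 16 libraries, 4 per group. Per the methods and the processing notes, the authors trimmed adaptors (cutadapt), aligned reads to mm10 (Bowtie2), removed PCR duplicates (SAMtools), called peaks on the 4 libraries of a group together (MACS2) and kept peaks at macrophage enhancers marked by H3K27ac or H3K4me2 (bedtools). The deposited lists give each peak's position and score, a whole number of the peak caller whose scale no header states. Read counts were not used here, so depth per library is unknown and sets an unmeasured limit on weak peaks.

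Peaks overlapping by at least 1 bp were merged (Python 3.11.15, pandas 2.3.3, numpy 2.4.6). A region took its highest score per list, and its percentile counts ties as 0.5. Genes, TSSs and places came from GENCODE vM21, and bases from the GRCm38 reference (pysam 0.24.0). Regions were called by presence or by a move of at least 20 percentile points. The code was tested on simulated lists. Regions named were those nearest each TSS, those missing from a list but at or above the median in another, and the 3 largest falls and rises of at least the stated sizes per comparison. Others, named after their values were seen, describe each gene. The members, lists, motifs and tests were chosen with earlier results of these data known. Some regions and sequences that the rule would name are not reported here. Groups came from the labels. Alternatives changed the merging, window, TSS, score floor, list length, overlap and scale.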

Additional observations from a re-analysis of the deposited data

How the results depend on the processing

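No paired analysis was possible because each list pools the 4 libraries of its group, so no value carries a replicate number, and for the same reason no replicate could be left out. Counts of member regions rest on the window. Within 50 kb of the TSS, 2 regions were LPS-opened and 5 T0-closed-in-LPS. Within 10 kb there were 22 regions, 19 of them in all 4 lists, with 2 T0-closed, 1 LPS-closed, 0 LPS-opened, 2 T0-closed-in-LPS, 1 in T0 but not T0-LPS and 0 the reverse. With peaks scoring at least 100 alone, 2 were LPS-opened. With every list shortened to its 29839 highest-scoring peaks, T0-closed fell from 20 to 5 and T0-opened rose from 0 to 5. LPS-closed were then 5, LPS-opened 7, T0-closed-in-LPS 3 and T0-opened-in-LPS 1, and the share ranked lower was 41.1% in T0 against Veh, 35.7% in LPS against Veh and 45.0% in T0-LPS against LPS. On the common percentile these shares were 40.4%, 35.1% and 49.1%. A reciprocal overlap of 50% gave 1 T0-opened and 2 T0-opened-in-LPS regions. Limited to regions whose nearest coding TSS is the member gene, a choice made after seeing the data, there were 44 regions, 27 in all 4 lists, with 13 T0-closed, 1 LPS-opened, 4 T0-closed-in-LPS and 3 in T0-LPS but not T0. Counting missing regions only where no peak could have been removed, also added after seeing the data, moved no count by over 1.5 times. For named regions no change of at least 20 points reversed. On another scale 12 fell below that threshold and 3 passed it. The moves of the Ppard region 39.8 kb upstream and the Nr4a1 region 64.0 kb downstream could not be checked in this way. Neither had a T0 peak, and so neither had a common percentile. Each other list held 1 peak there, so the mean score equalled the highest. Of 100 changes of any size recomputed on the common percentile, 15 changed sign, 10 of them in T0 against Veh, and none of these was over 9.88 points. The cause was not tested in any of these.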
